A study of Mus musculus with 7 samples.

Results

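The 9 genes examined are markers of regulatory T-cells or of adult T-cell leukemia cells, and their RNA was measured in mouse T-cells. They are Foxp3, Ccr4, Il2ra, Ikzf2, Ctla4, Tnfrsf4, Tnfrsf18, Tigit and Icos, taken by gene symbol from the 25033 genes listed in every library. The libraries came from 4 mice with a knock-in of ORP4L (ORP4L KI), an oxysterol-binding protein, and 3 WT littermates, with 1 library per mouse. All mice were C57BL/6J and 15 months of age per the labels, and the study describes the ORP4L KI mice as moribund when sampled. The ORP4L KI mice carry the human ORP4L coding sequence in the Rosa26 locus behind a stop cassette, which Cre driven by the Lck promoter removes in T-cells. Whether the WT littermates carried Cre is not given in the sources used here, nor is whether each library came from blood or spleen. The methods describe a kit for naive CD4+ T-cells, followed by culture with interleukin-2 and PHA, without saying whether these steps preceded the sequencing. The comparison addresses whether the transcripts of markers by which adult T-cell leukemia is recognised differ between ORP4L KI and WT T-cells.

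Regulatory T-cells are CD4+ T-cells that restrain other immune cells, and the transcription factor Foxp3 sets their identity. They carry the high-affinity interleukin-2 receptor, of which Il2ra encodes the CD25 chain, and they carry at high level the inhibitory receptors CTLA4 and TIGIT and the costimulatory receptors ICOS, OX40 (Tnfrsf4) and GITR (Tnfrsf18). Adult T-cell leukemia is a malignancy of mostly CD4+ T-cells infected by a human retrovirus, whose cells often display CD25 and the chemokine receptor CCR4 and in part of the patients Foxp3. Except for Foxp3, most of these genes are also transcribed in activated conventional T-cells.

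Total counts ranged from 12918187 to 15912921 in WT and from 16757959 to 19665679 in ORP4L KI. The reads listed under Osbp2, which encodes ORP4L in the mouse, numbered 188, 742, 155 and 443 in ORP4L KI replicates 1 to 4 and 0, 0 and 1 in WT, and human and mouse reads are not distinguished in these counts. The CD3 genes, Cd4 and Cd8a were detected in every library, as were markers of other blood cells. The 14 granulocyte markers, all detected in every library, took 0.186% to 0.53% of the counts in WT and 1.12% to 12.2% in ORP4L KI, and the 13 T-cell markers took 0.263% to 0.39% in WT and 0.144% to 0.545% in ORP4L KI. ORP4L KI replicate 1 had the largest granulocyte share and the smallest T-cell share, and ORP4L KI replicate 2 had the largest T-cell share, so several values are also given without one or the other of them. In bulk RNA, fewer cells of a type and less RNA per cell cannot be told apart.

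Of the 9 markers, Tigit was higher in the ORP4L KI libraries at an unadjusted threshold (edgeR, adjusted p = 0.170). This call was kept by 11 of 19 alternatives, and the other 8 markers did not pass. The Tigit call was lost with upper-quartile scaling, total counts, the replicate number as a block and 5 of the 7 libraries left out in turn, and its groups overlapped in RPKM. Tigit averaged 56.9 ± 10.9 CPM (counts scaled by library size and TMM; SD, n = 3) in WT and 141 ± 77.3 (SD, n = 4) in ORP4L KI, a 2.47-fold difference. Each gene was also set against Cd3e, a chain of the T-cell receptor complex, in the same library. On this scale Foxp3 was lower in all 4 ORP4L KI libraries than in any WT library, as were 6.99% of all genes. The exact permutation p of Foxp3 was 0.0571. Ctla4 and Tigit were higher in all 4, as were 1.48% of all genes. Set against Cd4, Foxp3 was at the same level in both groups, with a ratio of 0.187 ± 0.0153 (SD, n = 3) in WT and 0.187 ± 0.0195 (SD, n = 4) in ORP4L KI.

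All 9 markers passed the filter for low counts that left 13462 genes for edgeR's quasi-likelihood test. Genes whose log2 fold change exceeded 1 in either direction, at an unadjusted p under 0.01, are referred to as called. By this rule 1 of 9 markers was called, Tigit, against 630 of all genes (4.68%), and 1 of 9 was called higher against 320 of all genes (2.38%). At a Benjamini-Hochberg adjusted p under 0.05, edgeR's quasi-likelihood test called 0 of 9 markers and 3 genes in all (0.0223%). At an unadjusted p under 0.05 it passed 2 of 9, Tigit and Il2ra. Each of DESeq2's Wald test, edgeR's exact test and edgeR's likelihood ratio test passed 1 of 9 at an adjusted p under 0.05. The shares of all genes that passed in these ways were not computed, so these counts have no background beside them. The 0.0223% belongs to the quasi-likelihood test alone. The log2 fold changes had a median of -0.03 over the markers and 0.01 over all genes, with 4 markers above 0 and 5 below.

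**Figure D1:**
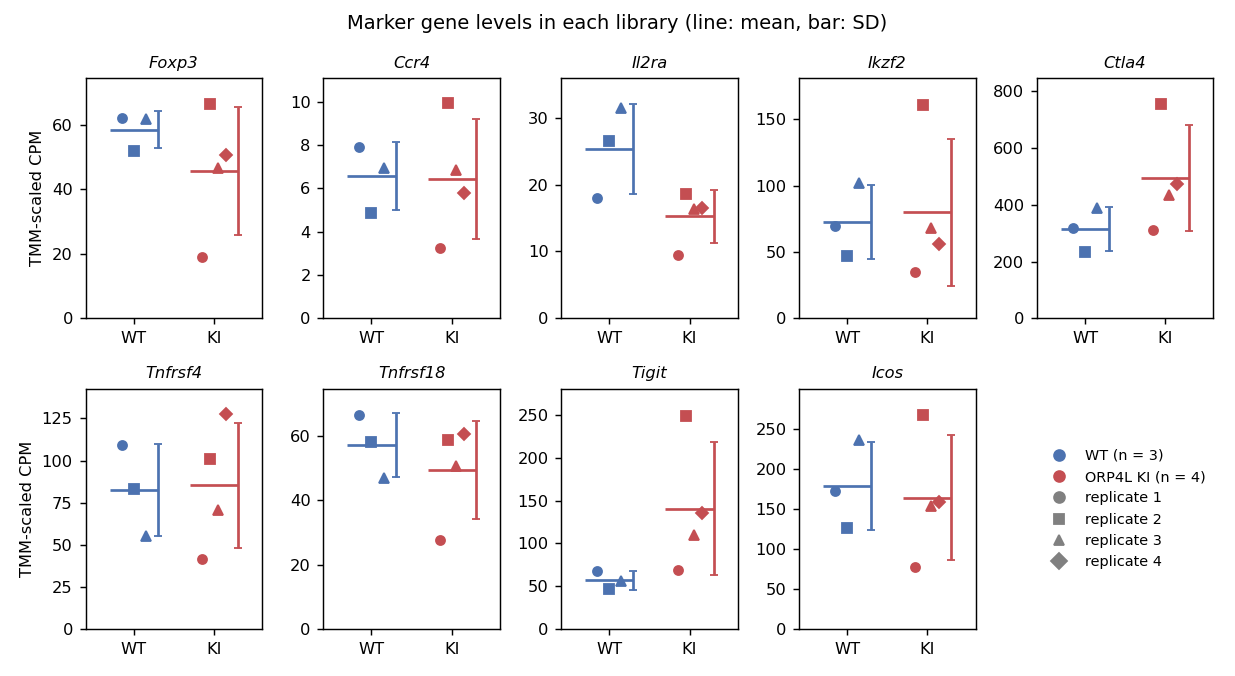
TMM-scaled CPM (vertical axes, linear from 0) of the 9 markers in 3 WT and 4 ORP4L KI libraries, with a point per library, the group mean as a line and the SD as a bar. In 8 panels the groups overlap, and in the Tigit panel ORP4L KI replicate 1 lies just above WT replicate 1.

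The inhibitory receptors Tigit and Ctla4 had the largest positive differences. TIGIT is a surface receptor that binds CD155 (Pvr) and nectins on antigen-presenting and tumor cells and dampens T-cell and NK-cell responses. Its gene lies on the minus strand at chr16:43626137-43665125 (all positions are on GRCm38.p6). Tigit had 68.2, 46.5 and 55.9 CPM in WT replicates 1 to 3, and 69.2, 249, 109 and 135 CPM in ORP4L KI replicates 1 to 4. The groups did not overlap, but ORP4L KI replicate 1 barely exceeded the highest WT library. The difference was 1.31 ± 0.40 (SE) on the log2 scale, with an adjusted p of 0.170 by edgeR's quasi-likelihood test. An exact permutation test over the 35 assignments of 4 and 3 libraries, of which the smallest possible two-sided p is 0.0286, gave p = 0.0571. Without ORP4L KI replicate 2 the log2 fold change was 0.86 and the call was lost, and without replicate 1 it was 1.53. The call was also lost without each WT library in turn and without ORP4L KI replicate 4. Such a separation in CPM, with ORP4L KI higher, was present in 6.43% of all genes.

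CTLA4 competes with CD28 for CD80 and CD86 and is required for regulatory T-cells to suppress. Ctla4 lies at chr1:60909025-60915832 on the plus strand. It had 320.0, 233 and 390 CPM in WT replicates 1 to 3 and 311, 757, 435 and 474 CPM in ORP4L KI replicates 1 to 4. In 3 of 4 ORP4L KI libraries it was above every WT library, while replicate 1 lay among them. The log2 fold change of 0.65 ± 0.32 (SE) did not pass, with an adjusted p of 0.424 by edgeR's quasi-likelihood test, and without ORP4L KI replicate 2 it was 0.35.

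The RefSeq promoter sequences used here (GRCm38.p6) covered 7 of the 9 markers, with 2 starts for Foxp3, but not Ikzf2 or Icos. The sequences run from 250 bases before to 50 bases after an annotated start. Those of Ctla4 and Tigit, which were higher relative to Cd3e, and of Foxp3, which was lower, are shown 5′ to 3′ in the direction of the gene. Capitals mark the core GGAAA that factors of the NFAT family, induced by T-cell receptor calcium signaling, can bind, read on either strand (TTTCC on the strand shown). The regions are chr1:60908775-60909074 (plus strand) for Ctla4, chr16:43664135-43664434 (minus strand) for Tigit and chrX:7579426-7579725 (plus strand) for the upstream start of Foxp3.
Ctla4: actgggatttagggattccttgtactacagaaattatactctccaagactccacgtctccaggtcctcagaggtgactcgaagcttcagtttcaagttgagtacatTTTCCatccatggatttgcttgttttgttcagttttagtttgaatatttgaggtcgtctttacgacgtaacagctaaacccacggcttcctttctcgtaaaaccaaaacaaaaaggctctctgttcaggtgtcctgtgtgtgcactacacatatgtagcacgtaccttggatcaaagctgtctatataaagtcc
Tigit: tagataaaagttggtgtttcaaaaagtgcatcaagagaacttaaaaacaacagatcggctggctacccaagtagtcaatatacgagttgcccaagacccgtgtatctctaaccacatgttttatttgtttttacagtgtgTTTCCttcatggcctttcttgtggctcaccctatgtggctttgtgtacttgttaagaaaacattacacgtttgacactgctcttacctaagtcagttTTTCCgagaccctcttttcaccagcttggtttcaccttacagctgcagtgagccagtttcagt
Foxp3: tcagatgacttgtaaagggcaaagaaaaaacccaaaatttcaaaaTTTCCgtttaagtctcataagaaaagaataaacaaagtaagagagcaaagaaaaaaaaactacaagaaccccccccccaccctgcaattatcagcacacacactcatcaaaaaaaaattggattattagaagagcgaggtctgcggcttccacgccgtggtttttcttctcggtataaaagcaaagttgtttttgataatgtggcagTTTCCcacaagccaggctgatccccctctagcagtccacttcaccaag
The core occurred once in Ctla4 and at 2 places in each of Tigit and Foxp3. It was present in 8 of the 8 marker promoters and in 61.3% of 32851 mouse promoters of this length, so the letters alone are common. The forkhead core TGTTTA was present in 1 of 8 (13.4% of all), the RUNX core TGTGGT in 1 of 8 (16.8%), the STAT motif TTCNNNGAA in 2 of 8 (8.3%) and the TATA box TATAAA in 2 of 8 (13.6%), on either strand. A match is a description of these letters and not a site of binding.

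Foxp3, the factor that defines regulatory T-cells, and Ikzf2, which encodes Helios and is abundant in thymus-derived regulatory T-cells, had overlapping groups in CPM and did not pass the test. Foxp3 lies at chrX:7579676-7595243 on the plus strand. It had 62.1, 51.8 and 61.6 CPM in WT replicates 1 to 3 and 18.9, 66.4, 46.5 and 50.7 in ORP4L KI replicates 1 to 4. In 3 of 4 ORP4L KI libraries it was below every WT library, and in replicate 2 it was above them all. The log2 fold change was -0.36 ± 0.35 (SE), with an adjusted p of 0.751 by edgeR's quasi-likelihood test, and it was -0.10 without ORP4L KI replicate 1 and -0.61 without replicate 2. Exons of Foxp3 overlap those of Ccdc22, Ppp1r3f and Flicr, which had 296 to 487, 60 to 101 and 6 to 23 counts per library. The strand setting of the counting is not given in the sources used here, so reads of the overlapping stretches cannot be told apart. Foxp3 itself had 311 to 1213 counts.

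Ikzf2 lies at chr1:69531207-69687351 on the minus strand. It had 69.1, 46.6 and 102 CPM in WT replicates 1 to 3 and 35.1, 161, 68.4 and 55.6 in ORP4L KI replicates 1 to 4. ORP4L KI replicates 1 and 2 were the lowest and the highest of the 7 libraries. Its log2 fold change was 0.14 ± 0.48 (SE), with an adjusted p of 0.941 by edgeR's quasi-likelihood test.

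Il2ra and Ccr4, the genes of the surface proteins most used to recognise adult T-cell leukemia, were not higher in ORP4L KI. Il2ra encodes the alpha chain of the interleukin-2 receptor, which lets T-cells take up the cytokine at low concentration, and lies at chr2:11642792-11693194 on the plus strand. It had 18.1, 26.5 and 31.5 CPM in WT replicates 1 to 3 and 9.5, 18.6, 16.3 and 16.6 in ORP4L KI replicates 1 to 4. In 3 of 4 ORP4L KI libraries it was below every WT library, and replicate 2 lay just above WT replicate 1. The difference of -0.73 ± 0.28 (SE) on the log2 scale had an adjusted p of 0.287 by edgeR's quasi-likelihood test, and it stayed between -0.93 and -0.55 as each library was left out. Il2ra was below 0 on this scale under every scaling and test run for it.

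CCR4 is the receptor for the chemokines CCL17 and CCL22 and guides regulatory and type 2 helper T-cells to skin and other tissues. Ccr4 lies at chr9:114490316-114505476 on the minus strand and was the lowest of the 9, with 53 to 181 counts per library. It had 7.89, 4.84 and 6.95 CPM in WT replicates 1 to 3 and 3.23, 9.91, 6.84 and 5.79 in ORP4L KI replicates 1 to 4. The ORP4L KI libraries lay on both sides of the WT libraries. The log2 fold change was -0.03 ± 0.38 (SE), with an adjusted p of 0.986 by edgeR's quasi-likelihood test.

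The 3 costimulatory receptors also had overlapping groups. ICOS, a CD28 relative that binds ICOSL and supports follicular helper and effector regulatory T-cells, is encoded at chr1:60960773-61000322 on the plus strand, 44.9 kb from Ctla4. Icos had 173, 126 and 237 CPM in WT replicates 1 to 3 and 77.0, 268, 154 and 158 in ORP4L KI replicates 1 to 4. The log2 fold change was -0.12 ± 0.38 (SE), while that of its neighbor Ctla4 was above 0.

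OX40 and GITR are receptors of the TNF family that signal through TRAF adaptors to NF-kappaB. Their genes lie 9.7 kb apart on the plus strand, Tnfrsf4 at chr4:156013595-156016613 and Tnfrsf18 at chr4:156026322-156028894. Tnfrsf4 had 109, 83.1 and 55 CPM in WT replicates 1 to 3 and 41.8, 101, 70.9 and 128 in ORP4L KI replicates 1 to 4. Tnfrsf18 had 66.6, 58.0 and 46.9 CPM in WT replicates 1 to 3 and 27.6, 58.8, 50.5 and 60.7 in ORP4L KI replicates 1 to 4. For both genes ORP4L KI replicate 1 was the lowest library, and the other ORP4L KI libraries fell within the WT range except replicate 4 for Tnfrsf4, the highest of the 7. The log2 fold changes were 0.05 ± 0.37 (SE) for Tnfrsf4 and -0.21 ± 0.28 (SE) for Tnfrsf18, with adjusted p of 0.974 and 0.827 by edgeR's quasi-likelihood test. Without ORP4L KI replicate 1, Tnfrsf18 was at -0.016. An antisense gene, Gm16008, overlaps 414 exonic bases of Tnfrsf18, whose reads cannot be told apart from it without strand.

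The share of reads from T-cell markers varied among the libraries, and each marker was therefore divided by Cd3e, a chain of the T-cell receptor complex, in the same library. Cd3e had 2829, 1826 and 2237 reads in WT replicates 1 to 3 and 1917, 4467, 2603 and 2802 in ORP4L KI replicates 1 to 4, with a log2 fold change of 0.20 ± 0.28 (SE). Per 100 Cd3e reads there were 35.4, 45.1 and 39.2 Foxp3 reads in WT and 16.2, 27.2, 31.1 and 29.1 in ORP4L KI. All 4 ORP4L KI libraries were below all 3 WT libraries, with a log2 difference of -0.66 between means of -1.33 ± 0.18 (SD, n = 3) in WT and -1.99 ± 0.43 (SD, n = 4) in ORP4L KI, and an exact permutation p of 0.0571. Across all genes, 6.99% had ratios to Cd3e that were lower in every ORP4L KI library than in any WT library.

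Per 100 Cd3e reads, Tigit had 38.8, 40.5 and 35.6 reads in WT replicates 1 to 3 and 59.3, 102, 73.1 and 77.5 in ORP4L KI replicates 1 to 4. The log2 difference was 1.00, between -1.39 ± 0.10 (SD, n = 3) and -0.39 ± 0.32 (SD, n = 4), with an exact permutation p of 0.0286, the smallest this design can give. Ctla4 had 182, 203 and 248 reads per 100 of Cd3e in WT and 267, 309, 291 and 272 in ORP4L KI. Its log2 difference of 0.44, between 1.07 ± 0.23 (SD, n = 3) and 1.51 ± 0.10 (SD, n = 4), had the same exact permutation p of 0.0286. For both genes the lowest ORP4L KI library exceeded the highest WT library, as it did for 1.48% of all genes. The ratios of the other 6 markers overlapped between groups. Their log2 differences ran from -0.91 for Il2ra (exact permutation p = 0.0571) through -0.43 for Tnfrsf18, -0.38 for Icos, -0.28 for Ccr4 and -0.19 for Ikzf2 to -0.18 for Tnfrsf4.

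When Cd3e counts replaced TMM as the scaling in edgeR's quasi-likelihood test, 1 of 9 markers was called, Tigit, against 3.76% of all genes. Its log2 fold change was 1.03 ± 0.34 (SE), with an adjusted p of 0.259. Ctla4 was not called, with a log2 fold change of 0.43 ± 0.36 (SE) and an adjusted p of 0.853 by the same test. This scaling moved the median of all genes to -0.14, so Foxp3 at -0.62 (adjusted p = 0.642 by the same test) and Il2ra at -0.98 (adjusted p = 0.358) are read against that shift.

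**Figure D2:**
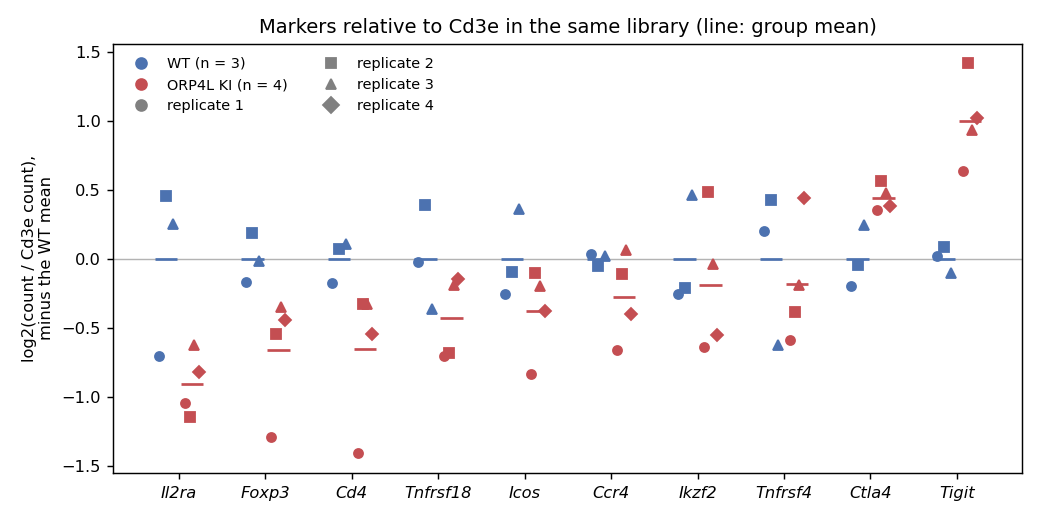
Log2 ratio of the counts of each marker, and of Cd4, to those of Cd3e in the same library, minus the WT mean (vertical axis); points are libraries and lines are group means. Foxp3 and Cd4 are lower in all 4 ORP4L KI libraries than in the WT libraries, and Ctla4 and Tigit are higher in all 4.

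Foxp3 is carried by CD4+ T-cells, and Cd4 differed in the same direction. Per 100 Cd3e reads there were 188, 224 and 229 Cd4 reads in WT replicates 1 to 3 and 80.02, 169, 170 and 146 in ORP4L KI replicates 1 to 4. All 4 ORP4L KI libraries were below the WT libraries, with replicate 1 farthest, a log2 difference of -0.65 and an exact permutation p of 0.0857. Per 100 Cd4 reads, Foxp3 had 18.8, 20.2 and 17.1 reads in WT and 20.3, 16.0, 18.3 and 20 in ORP4L KI. The groups overlapped, with a log2 difference of -0.01 and an exact permutation p of 0.943.

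Relative to Cd4, Ctla4 and Tigit were higher in all 4 ORP4L KI libraries, as were 6.34% of all genes. Per 100 Cd4 reads, Ctla4 had 96.8, 90.9 and 108 reads in WT and 333, 183, 171 and 187 in ORP4L KI, a log2 difference of 1.10 with an exact permutation p of 0.0286. Tigit had 20.6, 18.1 and 15.5 reads per 100 of Cd4 in WT and 74.1, 60.1, 43.0 and 53.3 in ORP4L KI, a log2 difference of 1.65 with an exact permutation p of 0.0286. Ccr4, Ikzf2, Tnfrsf4, Tnfrsf18 and Icos were below 0 relative to Cd3e and above 0 relative to Cd4, with overlapping groups on both scales. Scaling by Cd4 moved the median of all genes to 0.69. In edgeR's quasi-likelihood test with this scaling, the adjusted p were 0.548 for Ctla4 and 0.368 for Tigit. Relative to the summed reads of 4 genes of the CD3 complex, Foxp3 was lower in all 4 ORP4L KI libraries (log2 difference -0.57, exact permutation p = 0.0286), as were 4.99% of all genes. Tigit was higher on this scale (1.09, exact permutation p = 0.0286), as were 1.81% of all genes, while Ctla4 overlapped (0.53, exact permutation p = 0.0571).

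Ctla4 and Tigit were also set against Foxp3 itself, a ratio chosen after the data were seen. For each Foxp3 read there were 5.15, 4.51 and 6.33 Ctla4 reads in WT replicates 1 to 3 and 16.5, 11.4, 9.34 and 9.36 in ORP4L KI replicates 1 to 4. For each Foxp3 read there were 1.10, 0.899 and 0.908 Tigit reads in WT and 3.65, 3.75, 2.35 and 2.67 in ORP4L KI. The groups were separate for both genes, with 2.14-fold and 3.16-fold higher ratios in ORP4L KI and exact permutation p of 0.0286 for each. Of all genes, 10.1% had ratios to Foxp3 that were separate in this direction. The other 6 markers overlapped relative to Foxp3, between -0.25 for Il2ra and 0.48 for Tnfrsf4 on the log2 scale.

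**Figure D3:**
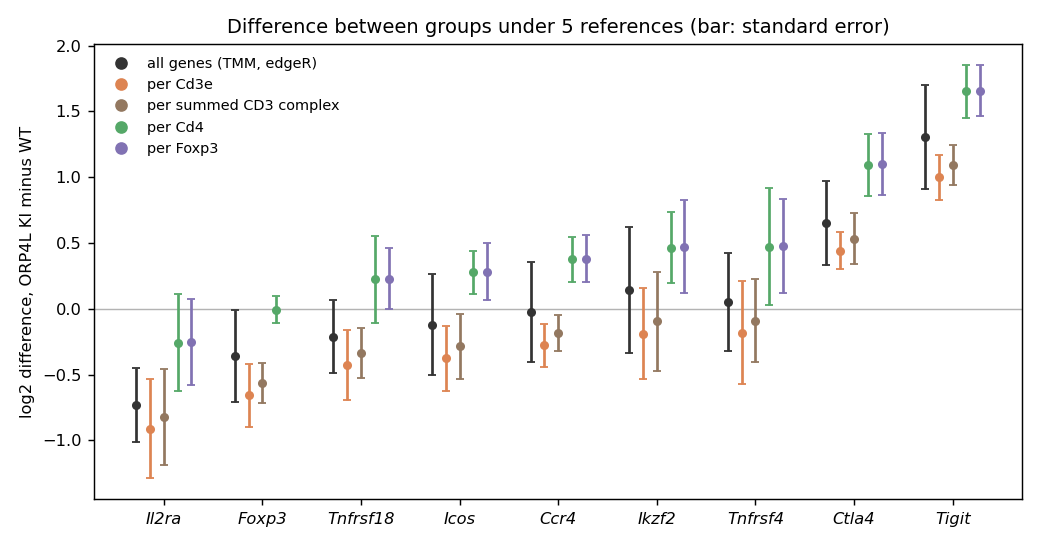
Log2 difference between ORP4L KI and WT (vertical axis) of each marker with all genes, Cd3e, the summed CD3 complex, Cd4 or Foxp3 as the reference; bars are standard errors. Tigit and Ctla4 are above 0 with every reference, Il2ra is below 0 with every reference, and Foxp3 moves from -0.66 per Cd3e to -0.01 per Cd4.

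Across the 7 libraries, 4 of the 8 other markers had an exact permutation p under 0.05 for Pearson's r with Foxp3 in log2 CPM, and none of them passed after adjustment over all genes. Pearson's r with Foxp3 was 0.90 for Tnfrsf18 (Spearman's rho 0.57), 0.89 for Icos (rho 0.86), 0.87 for Ccr4 (rho 0.86), 0.78 for Il2ra (rho 0.71), 0.74 for Ikzf2 (rho 0.82) and 0.68 for Tnfrsf4 (rho 0.46). It was 0.35 for Ctla4 (rho 0.32) and 0.23 for Tigit (rho 0.04). Exact permutation p over all orders of the 7 libraries were 0.00437 for Icos, 0.00873 for Ccr4, 0.0383 for Il2ra, 0.0466 for Tnfrsf18, 0.0635 for Ikzf2, 0.0784 for Tnfrsf4, 0.379 for Ctla4 and 0.633 for Tigit. The exact permutation p of rho were 0.0238 for Icos and Ccr4, 0.0341 for Ikzf2, 0.0881 for Il2ra, 0.2 for Tnfrsf18, 0.302 for Tnfrsf4, 0.498 for Ctla4 and 0.964 for Tigit. Over all 13461 relations 0 passed an adjusted p of 0.05 and 3500 passed an unadjusted p of 0.05, and the smallest adjusted p was 0.139, which Icos and Ccr4 shared. The adjusted p were 0.174 for Il2ra, 0.187 for Tnfrsf18, 0.216 for Ikzf2, 0.239 for Tnfrsf4, 0.569 for Ctla4 and 0.772 for Tigit.

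These relations depended most on ORP4L KI replicate 1. The median r of the markers with Foxp3 was 0.758, 0.309 without replicate 1 and 0.80 without replicate 2. ORP4L KI replicates 1 and 2 were the libraries farthest from the median of Foxp3. Without them r was 0.67 for Icos, 0.56 for Ikzf2, 0.51 for Ccr4, 0.49 for Il2ra, 0.14 for Tnfrsf18, -0.12 for Tnfrsf4, -0.23 for Ctla4 and -0.55 for Tigit. As deviations from the group means, r was 0.84 for Ctla4 and 0.90 for Tigit, and 0.75 to 0.92 for the other 6, a description in which ORP4L KI replicates 1 and 2 also carry most of the spread. The share of T-cell markers was lowest and highest in these same libraries, and its part in the relations was not tested.

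The genes most like Foxp3 over the 7 libraries were Rab11fip3 (r = 0.999), Cxxc1, Rbm28, Plxna1 and Shisa5 (r = 0.991), all with an adjusted p of 0.139 by the exact permutation test. None of them was called between groups. Cd4 followed closely, with r = 0.989. The r with Foxp3 was above 0.9 for 441 genes, 3.28% of all, and its median over all genes was 0.04.

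**Figure D4:**
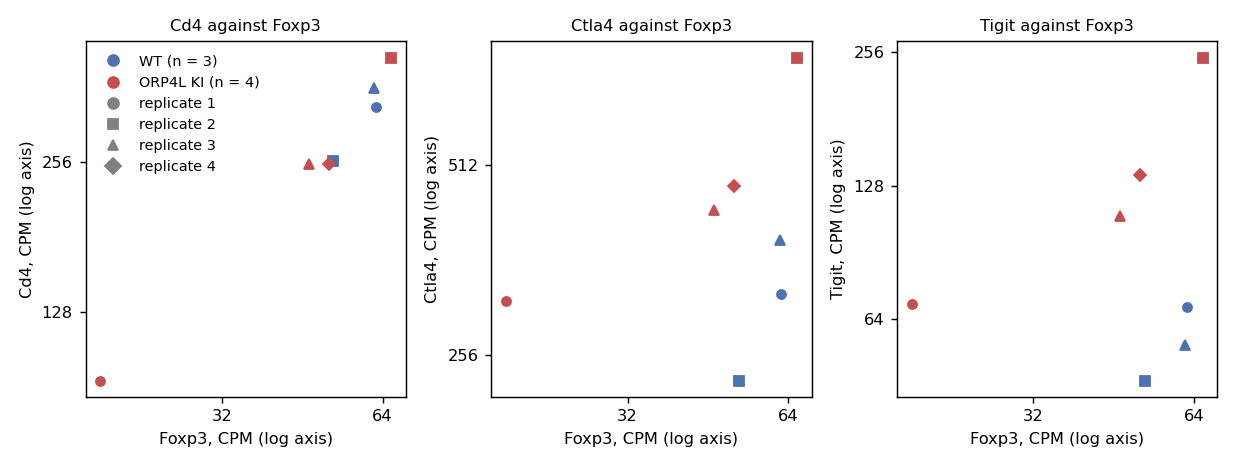
CPM of Cd4, Ctla4 and Tigit (vertical log axes) against CPM of Foxp3 (horizontal log axes), with a point per library. Cd4 and Foxp3 vary together over both groups (r = 0.989). For Ctla4 and Tigit, every ORP4L KI library except replicate 1 lies above the WT libraries at similar Foxp3. ORP4L KI replicate 1 has lower Foxp3 than any WT library.

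Levels of the markers were compared with each other per transcript length, as RPKM. In mean RPKM over the 7 libraries the order was Ctla4 at 232, Tigit at 110, Tnfrsf4 at 73.5, Icos at 53.9, Tnfrsf18 at 52.0, Foxp3 at 13.7, Ikzf2 at 8.44, Il2ra at 4.52 and Ccr4 at 2.39. Ctla4 stood at percentile 97.6 of the tested genes and Ccr4 at percentile 27.3. Tigit had rank 3 in WT with 62.9 ± 14.2 RPKM (SD, n = 3), below Tnfrsf4 with 75.5 ± 25.1 (SD, n = 3), and rank 2 in ORP4L KI with 146 ± 95.2 (SD, n = 4) against 72.04 ± 33.1 (SD, n = 4).

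Not every step in this order exceeded the spread of the libraries. Ctla4 was above Tigit, Tnfrsf18 above Foxp3, Foxp3 above Ikzf2 and Il2ra above Ccr4 in 7 of 7 libraries, with mean log2 steps of 1.21, 1.98, 0.79 and 0.91. Tigit was above Tnfrsf4 in 5 of 7, Tnfrsf4 above Icos in 6 of 7 and Ikzf2 above Il2ra in 6 of 7. Icos was above Tnfrsf18 in 2 of 7, with a mean log2 step of -0.02 and an SD of 0.45. This pair did not differ beyond its spread over the 7 libraries. Neither did Tnfrsf4 and Icos (0.48, SD 0.60) nor Tigit and Tnfrsf4 (0.44, SD 0.77). The step from Tnfrsf4 to Tigit was -0.24 (SD 0.46) in WT, where Tigit was higher in 1 of 3 libraries, and 0.95 (SD 0.50) in ORP4L KI, where it was higher in 4 of 4. In RPKM, which TMM does not scale, ORP4L KI replicate 1 had 59.9 for Tigit against 48.2 to 76.6 in WT, so on this scale the groups overlapped.

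**Figure D5:**
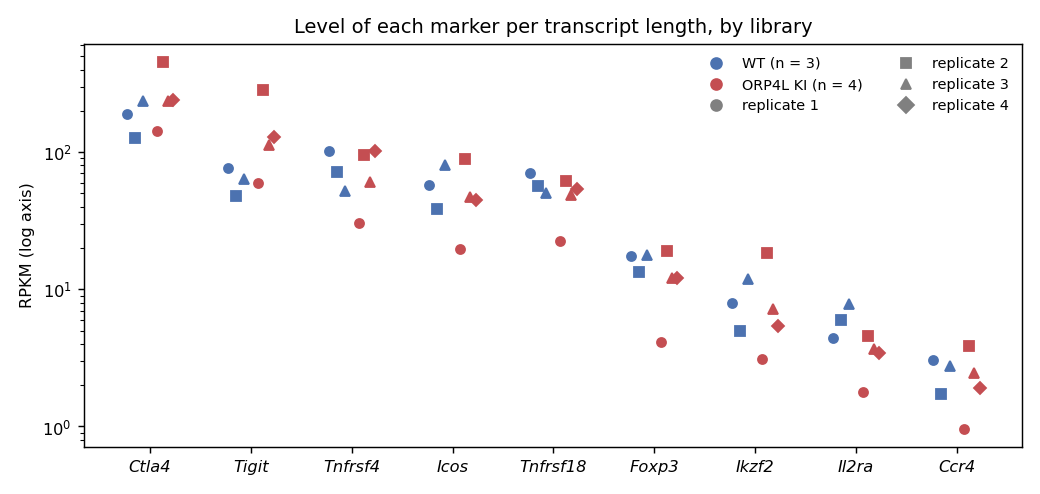
RPKM (log axis) of the 9 markers in order of their mean over 7 libraries, with a point per library. Ctla4, Tigit, Tnfrsf4, Icos and Tnfrsf18 lie above Foxp3, Ikzf2, Il2ra and Ccr4, and ORP4L KI replicate 1 is the lowest library for 7 of the 9.

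Genes around the markers were examined as 8 lists of 118 genes in all, of which 112 were tested. By the same rule as above, 2 were called higher and 3 lower, 4.46% against 4.68% of all genes, and the median log2 fold change was -0.12. Of 24 genes of the regulatory T-cell signature, 1 was called, Il10, the gene of the suppressive cytokine interleukin-10. It had 21.4, 14.5 and 14.5 CPM in WT and 25.3, 46.6, 31.9 and 52.4 in ORP4L KI. All ORP4L KI libraries were above the WT libraries, as was the case for 6.43% of all genes. Il10 had a log2 fold change of 1.22 ± 0.30 (SE) and an adjusted p of 0.104 by edgeR's quasi-likelihood test. The call was lost with Cd3e scaling, with the replicate block and without WT replicate 2 or 3. Monocytes and macrophages also transcribe Il10, and the 11 markers of these cells took 0.301% to 0.46% of the counts in WT and 0.222% to 0.59% in ORP4L KI.

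Among ligands and relatives of CTLA4, ICOS and TIGIT, 1 of 10 tested genes was called, and 9 of 10 had a log2 fold change below 0. Icosl, the ligand of ICOS on B-cells and antigen-presenting cells, had 63.9, 82.3 and 57.4 CPM in WT and 28.4, 26.8, 41.1 and 27.7 in ORP4L KI. All ORP4L KI libraries were lower than the WT libraries, as was the case for 7.38% of all genes. Icosl had a log2 fold change of -1.13 ± 0.22 (SE) and an adjusted p of 0.0680 by edgeR's quasi-likelihood test. The call was lost with Cd4 scaling, CD3 complex scaling and without WT replicate 2. In the OX40 and GITR pathway, 1 of 11 tested genes was called. It was Tnfsf4, which encodes the ligand of OX40, at 1.43 to 1.89 CPM in WT and 3.16 to 7.39 in ORP4L KI, with a log2 fold change of 1.48 ± 0.39 (SE) and an adjusted p of 0.126 by the same test. Of 19 alternatives 9 lost this call, among them Cd3e scaling, the replicate block and 5 of the 7 libraries left out in turn.

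Among ligands of CCR4 and related chemokine receptors, 2 of 8 tested genes were called, both lower. Ccl22, a CCR4 ligand made mainly by dendritic cells, had 26.0, 57.1 and 16.7 CPM in WT and 2.62, 4.27, 13.6 and 9.21 in ORP4L KI, with a log2 fold change of -2.16 ± 0.57 (SE) and an adjusted p of 0.126 by edgeR's quasi-likelihood test. Ccr9, a receptor that guides T-cells to the gut, had 21.9 to 28.5 CPM in WT and 5.36 to 12.7 in ORP4L KI, with a log2 fold change of -1.60 ± 0.29 (SE) and an adjusted p of 0.0623 by the same test. For both genes the groups were separate, as were the groups of 7.38% of all genes in CPM with ORP4L KI lower. Both calls were lost with Cd4 scaling, and that of Ccl22 also without WT replicate 2. The 8 dendritic cell markers, all detected in every library, took 0.055% to 0.0769% of the counts in WT and 0.0127% to 0.0268% in ORP4L KI, and the 10 B-cell markers took 0.0412% to 0.0666% and 0.0233% to 0.0648%. Their part in the values of Icosl, Ccl22 and Ccr9 was not tested.

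The other 4 lists held no called gene. They were 20 regulators and partners of Foxp3 (median log2 fold change -0.10), 14 genes of interleukin-2 receptor signaling (0.09), 20 tested genes associated with adult T-cell leukemia (-0.06) and 10 genes lower in regulatory than in conventional CD4+ T-cells (-0.21). At the smallest p of their lists, Foxo3, a transcription factor that supports Foxp3, had a log2 fold change of -0.74 ± 0.26 (SE), Il15ra of 0.53 ± 0.24 (SE) and Cd7, a T-cell surface antigen often lost in adult T-cell leukemia, of -0.97 ± 0.28 (SE). Their adjusted p were 0.237, 0.378 and 0.150 by edgeR's quasi-likelihood test.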

How the data were processed

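T-cells of 3 WT and 4 ORP4L KI mice, 1 library each, were grouped by genotype, as the labels give it. The authors trimmed adapters, dropped reads under 17 bases, mapped the rest with FANSe3 to mouse mRNAs, and merged splice variants. The read count per gene was deposited without normalization. The authors also deposited RPKM, scaled by total reads and transcript length, which were used here to order levels. The build is mm10 in the submitters' processing notes. The versions and the treatment of reads shared by genes are not given in the sources used here. No pair of libraries agreed within sampling noise.

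The count analysis used edgeR 4.0.16 under R 4.3.3 (filterByExpr with 10 counts in a library and 15 in total, TMM, quasi-likelihood test, Benjamini-Hochberg over 13462 genes). The thresholds were those drawn in the study's volcano plot. The SE is the log2 fold change over the square root of F. Ratios of counts were compared by a two-sided exact permutation test, and correlations used log2(CPM + 0.5). The test was tried on simulated data with known changes. The lists, the members and the tests were chosen with earlier results of these data known. The genes named are the 9 members, Cd3e, Cd4 and Osbp2, the called genes of each list or else its gene of smallest p, and the 5 genes of highest r with Foxp3 at a mean log2 CPM of at least 1. Cd8a was chosen after its values were seen. Alternatives were DESeq2 1.42.0 (size factors and Wald test), other scalings, filters and edgeR tests, the replicate number as a block, and each library left out. P-values measure the spread between these mice. Positions are from GENCODE M21 and sequences from RefSeq, both on GRCm38.p6. Figures were made with Matplotlib 3.10.9.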

Additional observations from a re-analysis of the deposited data

Results flagged for a closer look

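In 35 groups of 4 ORP4L KI libraries examined for the named genes, 3 held a library whose gap to the nearest other exceeded Dixon's critical value for 4 values, and chance alone gives about 1.75 of 35. Il15ra, the private chain of the interleukin-15 receptor, had 16.65 CPM in ORP4L KI replicate 2 and 11.07 to 11.99 in the other ORP4L KI libraries. Icosl had 41.07 CPM in ORP4L KI replicate 3 and 26.78 to 28.37 in the others. Lef1, a transcription factor of naive T-cells and the gene of smallest p among those lower in regulatory T-cells, had 36.65 CPM in ORP4L KI replicate 1 and 81.33 to 88.83 in the others, and its log2 fold change was -0.73 with an adjusted p of 0.436 by edgeR's quasi-likelihood test. ORP4L KI replicate 1 had the smallest share of T-cell markers and replicate 2 the largest, and their part in these values was not tested.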

How the results depend on the processing

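The count of called markers, 1 of 9, became 0 with upper-quartile scaling, total counts alone, the replicate block and an adjusted p under 0.05, and ranged from 0 to 1 as each library was left out. Tigit had a positive log2 fold change under every alternative run, between 0.86 and 1.67, with adjusted p from 0.0278 (DESeq2's Wald test) to 0.504 (without WT replicate 2). The 630 genes called in all became 341 with Cd4 scaling, 416 with CD3 complex scaling, 3 at an adjusted p under 0.05, and 328 (without WT replicate 2) to 805 as each library was left out. The 5 called genes of the related lists became 8 with total counts, 2 with Cd4 scaling, 3 with CD3 complex scaling and 1 (without WT replicate 2) to 7 with a library left out. The 3 markers whose ratio to Cd3e did not overlap between groups became 3 to 5 with a library left out, 5 without WT replicate 1 or ORP4L KI replicate 3. Groups of fewer libraries separate more easily, and the share of all genes was not computed with a library left out. This rise is therefore not read as a result about the markers. The median r of the markers with Foxp3 was 0.758, and 0.309 (without ORP4L KI replicate 1) to 0.845 with a library left out. The cause of these shifts was not tested.

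Log2 fold changes near 0 turned direction. Ccr4 was 0.38 with Cd4 scaling, Tnfrsf18 0.23 and Icos 0.28. Ikzf2 was -0.15 with Cd3e scaling and -0.077 with CD3 complex scaling. Tnfrsf4 was -0.014 with upper-quartile scaling, -0.068 with total counts, -0.19 with Cd3e scaling, -0.11 with CD3 complex scaling and -0.24 with the replicate block. With a library left out, Ccr4 ran from -0.33 to 0.19, Ikzf2 from -0.47 to 0.47, Tnfrsf4 from -0.21 to 0.31, Icos from -0.48 to 0.14 and Cd3e from -0.040 to 0.34. Relative to Cd4 and to Foxp3 in place of Cd3e, Ccr4 was 0.376 and 0.382, Ikzf2 0.465 and 0.471, Tnfrsf4 0.472 and 0.478, Tnfrsf18 0.223 and 0.229, and Icos 0.276 and 0.282. Relative to Cd3e with a library left out, Ikzf2 ran from -0.41 to 0.044 and Tnfrsf4 from -0.49 to 0.030. Total counts alone moved the median of all genes to -0.13.

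The replicate numbers are not stated to pair the mice. Same-numbered libraries had deviations from their group means correlated at 0.15, -0.54 and -0.00, too few pairs to decide whether mice were paired. With the replicate block over replicates 1 to 3, Tigit was 1.12 (adjusted p = 0.467 in edgeR) and the genes called in all were 466. The fit of the same 6 libraries without the block is the one without ORP4L KI replicate 4. At 53 to 181 counts, Ccr4 is the marker most limited by depth.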

Other observations

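Cd8a, the coreceptor chain of cytotoxic T-cells, had 46.5, 48.3 and 49.6 reads per 100 Cd4 reads in WT replicates 1 to 3 and 85.2, 54.6, 70.0 and 70.6 in ORP4L KI replicates 1 to 4. All 4 ORP4L KI libraries were above the WT libraries, with a log2 difference of 0.53 and an exact permutation p of 0.0571, and 6.34% of all genes were separate in this way relative to Cd4. Relative to Cd3e, Cd8a overlapped between groups, with a log2 difference of -0.13 and an exact permutation p of 0.629, whereas Cd4 was lower in every ORP4L KI library. The methods describe a kit for naive CD4+ T-cells but do not say whether these libraries were made after it. Such a kit would remove cells other than naive CD4+ T-cells, CD8+ T-cells and NK cells among them. The 8 NK cell markers took 0.0537% to 0.0665% of the counts in WT, 0.0172%, 0.0373% and 0.0284% in ORP4L KI replicates 1, 3 and 4, and 0.0827% in replicate 2, the library with the most Tigit. Which cells carried the Tigit and Ctla4 reads cannot be told apart in these libraries.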
